A study of Homo sapiens and Mus musculus with 13 samples.

Results

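The hemoglobin genes of mouse mammary tumors are described here with 5 members, the beta globin genes Hbb-bs and Hbb-bt, the alpha globin genes Hba-a1 and Hba-a2, and Alas2, the red cell enzyme of heme synthesis. The members were chosen by name, with their measured values known, as a measure of blood in the samples, and all 5 are among the 55228 gene symbols of the mouse table. The differences of the members between the genotypes are therefore a description, and no test is given for them. Poly(A) RNA of breast tumors was measured by RNA-Seq in 3 Trim11+/+ and 3 Trim11+/- tumors from mice of 3 months of age, all labelled as hybrids of FVB/N-Tg (MMTV-PyVT) with C57BL/6N. In the MMTV-PyVT model a mammary tumor virus promoter drives the polyoma middle T oncogene in the mammary epithelium, so that both genotypes carry the same oncogene. The Trim11 deletion covers coding exons in every tissue of the animal and is present on 1 of the alleles in Trim11+/- mice. The strain label reads Trim11+/- in all 6 tumors, the Trim11+/+ ones included, with strain numbers from 634 to 639, and the genotypes were taken from the genotype label. The labels do not say whether each tumor came from a separate mouse, so the spread given below is that between these samples. The other 7 libraries come from the human cell line MDA-MB-231, grown from a breast cancer, and enter no comparison here.

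Hemoglobin carries oxygen as a tetramer of alpha and beta globin chains, each with a heme group. Its mRNA is made in erythroblasts of the bone marrow and spleen, remains in young red cells after the nucleus is lost and fades as they age, so globin mRNA in a solid tissue is commonly read as blood carried in its vessels. Alas2 makes the first heme precursor in erythroid cells, whereas Alas1 does so in all other cells.

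Both chains are encoded by pairs of copies that are almost the same, which bears on how reads were given to each gene. In the mm10 annotation (GENCODE release 21 for mouse) Hba-a1 (ENSMUSG00000069919.7) lies on chromosome 11 from 32283511 to 32284465 and Hba-a2 (ENSMUSG00000069917.7) from 32296489 to 32297298, both on the plus strand. Hbb-bs (ENSMUSG00000052305.6) lies on chromosome 7 from 103826534 to 103828096 and Hbb-bt (ENSMUSG00000073940.3) from 103812524 to 103813996, both on the minus strand. The 429 coding bases of the alpha genes differ at 1 position, C381T from Hba-a1 to Hba-a2, and the 444 coding bases of the beta genes differ at 1 position, C417T from Hbb-bs to Hbb-bt, counted from the first base of the start codon. The stretches of 60 coding bases around these positions are shown because they hold the only coding bases that tell the copies apart, which stand in capitals. The alpha stretches span coding bases 352 to 411, at chr11:32284314-32284373 for Hba-a1 and chr11:32297131-32297190 for Hba-a2. The beta stretches span coding bases 385 to 444, at chr7:103826665-103826724 for Hbb-bs and chr7:103812656-103812715 for Hbb-bt.
Hba-a1: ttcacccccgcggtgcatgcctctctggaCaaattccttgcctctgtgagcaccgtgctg
Hba-a2: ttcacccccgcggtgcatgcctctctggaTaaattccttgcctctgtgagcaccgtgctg
Hbb-bs: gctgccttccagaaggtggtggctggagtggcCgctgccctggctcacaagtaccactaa
Hbb-bt: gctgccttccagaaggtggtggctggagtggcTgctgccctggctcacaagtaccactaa
Of the stretches of 150 bases, the length of a read, in the annotated transcript of Hba-a2, 65.7% occur unchanged in Hba-a1, and 48.4% of those of Hba-a1 occur in Hba-a2. For Hbb-bt and Hbb-bs the shares were 50.7% and 58.7%. No stretch of this length is shared between the annotated Hba-a1 and Hbb-bs transcripts. Values of a single copy are thus uncertain, and reads summed over a pair do not depend on how they were divided between its copies, while summed FPKM does so slightly, since the copies differ in annotated length. If reads that fit both copies were left out, the reads and FPKM of a pair would be too low.

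Levels are in FPKM, fragments scaled to gene length and sequencing depth, and the values of the members could be turned back into whole reads. In this way the library totals came out between 8793199 and 11117125 reads. Trim11, the targeted gene, was at 37.1 ± 1.84 FPKM (SD, n = 3) in Trim11+/+ and at 23.2 ± 0.660 FPKM (SD, n = 3) in Trim11+/- tumors, with no overlap, which fits the labels. A gene met the fold and p rule when its mean FPKM differed by 1.5 times or more and its unadjusted limma p was under 0.05. By this rule 324 of 17328 genes tested were lower in Trim11+/- tumors (1.87%) and 301 were higher (1.74%). After Benjamini-Hochberg adjustment 1 gene (0.00577%) had a limma p under 0.05. Levels that did not overlap between the genotypes were found for 6.78% of all genes on the lower side and 6.6% on the higher side, and 3 of the 5 members, Hba-a1, Hbb-bs and Hbb-bt, were among the lower, a count that the choice of members leaves without weight.

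Globin mRNA was read as a very small part of the RNA of every tumor, and less of it was found in each Trim11+/- tumor than in any Trim11+/+ tumor. Summed over the 4 globin genes, the level was 36.4, 43.6 and 46.7 FPKM in Trim11+/+ tumors 1 to 3 and 17.4, 13.8 and 22.8 FPKM in Trim11+/- tumors 1 to 3. The lowest Trim11+/+ tumor was thus above the highest Trim11+/- tumor. The means were 42.3 ± 5.30 (SD, n = 3) and 18.0 ± 4.54 FPKM (SD, n = 3), a ratio of 0.425 or a log2 ratio of -1.23. Without 1 tumor at a time the log2 ratio lay between -1.44 and -1.07. This sum was 0.0131% ± 0.00166 (SD, n = 3) of all FPKM in Trim11+/+ and 0.00556% ± 0.00130 (SD, n = 3) in Trim11+/- tumors.

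The reads behind these sums were few. Over the 6 tumors 1446 reads fell on the 4 globin genes, 1017 in Trim11+/+ and 429 in Trim11+/- tumors, from totals of 31129843 and 30655952 reads. Scaled to 1000000 reads (RPM), this gave 28.2 (95% interval 25.1 to 31.5), 33.9 (30.4 to 37.7) and 36.3 (32.6 to 40.2) in Trim11+/+ tumors 1 to 3. In Trim11+/- tumors 1 to 3 it gave 13.5 (11.4 to 15.8), 10.5 (8.43 to 12.8) and 17.4 (15.0 to 20.1). The exact Clopper-Pearson intervals of the genotypes do not meet, although they cover counting error only and not the spread between animals or pieces of tissue. In bulk tissue, fewer red cells and less globin mRNA per red cell cannot be told apart.

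**Figure D1:**
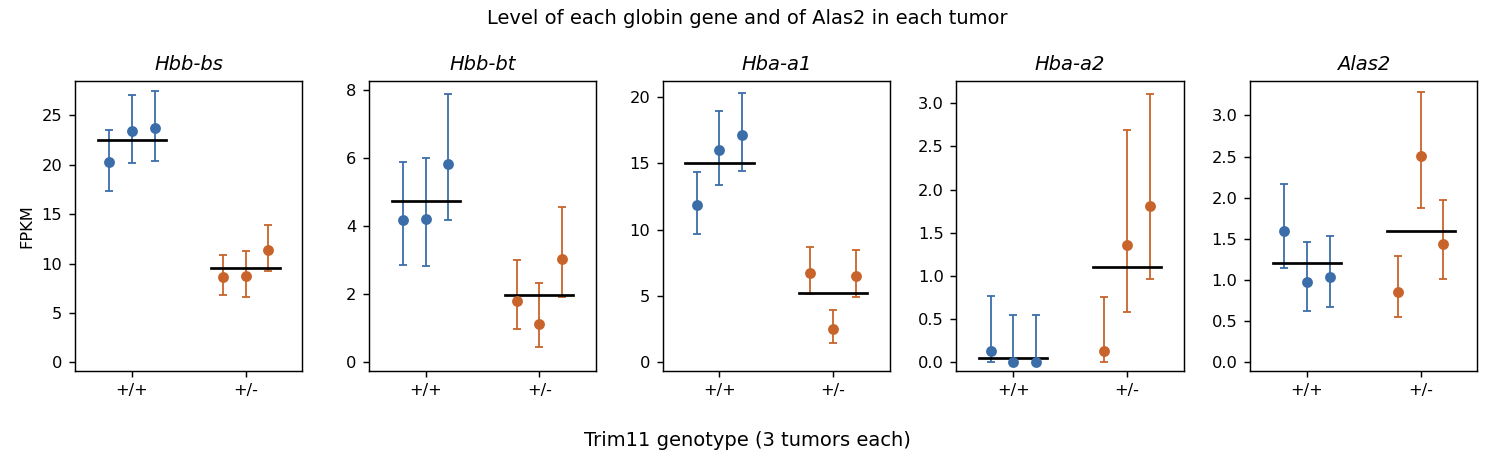
FPKM of each globin gene and of Alas2 in the 3 Trim11+/+ (blue) and 3 Trim11+/- (orange) tumors, in order of replicate from left to right. Points are tumors, bars are exact 95% Poisson intervals of the reads, black lines are genotype means, and each panel has its own axis. The genotypes are apart for Hbb-bs, Hbb-bt and Hba-a1 and overlap for Hba-a2 and Alas2.

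Hbb-bs, which encodes an adult beta chain, was the most abundant member per length in every tumor. Its level was 20.3, 23.4 and 23.7 FPKM in Trim11+/+ tumors and 8.67, 8.74 and 11.4 FPKM in Trim11+/- tumors, from 59 to 183 reads per tumor. The genotypes did not overlap. The ratio of the means was 0.427, and the difference on the scale of log2(FPKM + 1) was -1.15 (standard error 0.13). Hbb-bs also varied least within the genotypes among the members, with a coefficient of variation of 8.59% in Trim11+/+ and 16.2% in Trim11+/- tumors.

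Hbb-bt, the second adult beta gene, was read at a much lower level. It was at 4.17, 4.20 and 5.81 FPKM in Trim11+/+ tumors and at 1.79, 1.13 and 3.04 FPKM in Trim11+/- tumors, again with no overlap. The ratio of its means was 0.421 and its log2 difference was -0.98 (standard error 0.26). Hbb-bt took a like share of the reads given to the beta pair in every tumor, from 10.6% in Trim11+/- tumor 2 to 19.7% in Trim11+/- tumor 3, and between 14.1% and 18.3% in Trim11+/+ tumors. The exact intervals of these shares overlap between all 6 tumors.

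Hba-a1, an adult alpha gene, was second in level. It was at 11.8, 16.0 and 17.2 FPKM in Trim11+/+ tumors and at 6.76, 2.52 and 6.53 FPKM in Trim11+/- tumors. All Trim11+/- values were below the lowest Trim11+/+ value, with Trim11+/- tumor 2 at the bottom. The ratio of its means was 0.351 and its log2 difference was -1.42 (standard error 0.33).

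Hba-a2, the other adult alpha gene, went the other way in 2 tumors and rested on very few reads. It had 1, 0 and 0 reads in Trim11+/+ tumors and 1, 8 and 13 reads in Trim11+/- tumors, that is 0.137, 0 and 0 against 0.135, 1.36 and 1.81 FPKM. The genotypes overlapped, since Trim11+/+ tumor 1 and Trim11+/- tumor 1 had 1 read each. A count of 0 allows up to 0.442 FPKM in Trim11+/+ tumor 2 and 0.448 FPKM in Trim11+/+ tumor 3, so no fold change is given. The gene passed the filter on mean FPKM only through Trim11+/- tumors 2 and 3.

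As a share of the reads given to the alpha pair, Hba-a2 made up 0.943% (exact 95% interval 0.0239 to 5.14) of 106 reads in Trim11+/+ tumor 1. It had none of 132 and 140 reads in tumors 2 and 3, which allows shares of up to 2.27% and 2.14%. In Trim11+/- tumors the share was 1.61% (0.0408 to 8.66) of 62 reads in tumor 1, 30.8% (14.3 to 51.8) of 26 reads in tumor 2 and 18.6% (10.3 to 29.7) of 70 reads in tumor 3. Trim11+/- tumors 2 and 3 thus stood apart from the other 4 in how alpha reads fell on the copies, beyond counting error, while Trim11+/- tumor 1 was like the Trim11+/+ tumors. Of the stretches of read length, 65.7% of those of Hba-a2 and 48.4% of those of Hba-a1 occur in the other copy, while the rest can tell the copies apart. Trim11 lies on chromosome 11 as the alpha genes do, from 58978093 to 58991458. Whether alleles of the hybrid mice, also any inherited together with Trim11, or the placing of reads differed between these tumors was not tested.

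**Figure D2:**
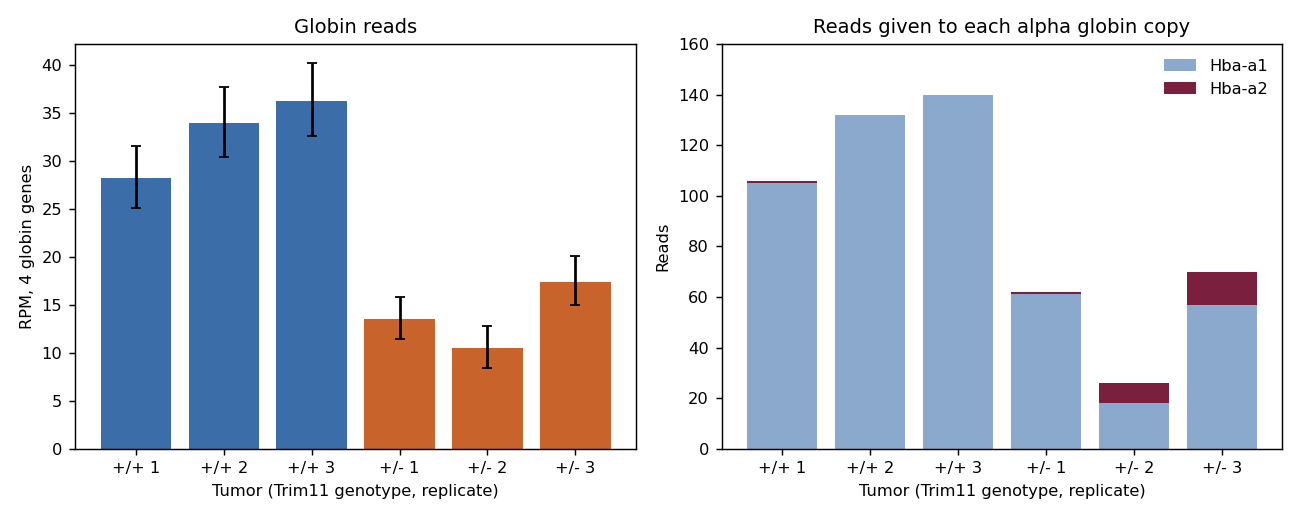
Left, RPM of the 4 globin genes in each tumor (blue, Trim11+/+; orange, Trim11+/-), with exact 95% Clopper-Pearson intervals for counting error. Right, reads given to Hba-a1 and Hba-a2 in each tumor, where Hba-a2 has 8 and 13 reads in Trim11+/- tumors 2 and 3 and at most 1 read in each of the other 4.

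Summed over both copies, the alpha genes behaved like the beta genes. The alpha pair was at 12.0, 16.0 and 17.2 FPKM in Trim11+/+ tumors and at 6.89, 3.88 and 8.35 FPKM in Trim11+/- tumors, a ratio of means of 0.424. The beta pair was at 24.4, 27.6 and 29.6 FPKM against 10.5, 9.87 and 14.4 FPKM, a ratio of 0.426. Both pairs were without overlap between the genotypes. The beta over alpha ratio was 2.04, 1.73 and 1.72 in Trim11+/+ and 1.52, 2.54 and 1.73 in Trim11+/- tumors, which overlap. Before the copies were summed, the ratio of Hbb-bs to Hba-a1 in Trim11+/- tumor 2 was 3.47, against 1.28 to 1.74 in the other 5 tumors.

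Alas2 did not follow the globin genes. Alas2 (ENSMUSG00000025270.13) lies on the X chromosome from 150547375 to 150570638 on the plus strand, inside Apex2 (ENSMUSG00000025269.16), a DNA repair gene that runs over it on the minus strand from 150519519 to 150589868. Its level was 1.60, 0.982 and 1.04 FPKM in Trim11+/+ tumors and 0.861, 2.51 and 1.43 FPKM in Trim11+/- tumors, from 23 to 53 reads. The genotypes overlapped, with both the lowest and the highest value in Trim11+/- tumors. The difference was 0.20 on the log2 scale (standard error 0.26), and -0.04 without Trim11+/- tumor 2. Trim11+/- tumor 2 therefore had the lowest sum of globin and the highest Alas2, and the globin sum over Alas2 ranged from 5.48 there to 45.1 in Trim11+/+ tumor 3.

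Reads of Alas2 and of Apex2 cannot be separated by strand, since the libraries were non-directional. Of the 2403 exon bases of Alas2, 311 (12.9%) lie in an exon of Apex2, namely the last Alas2 exon, from 150570328 to 150570638. Apex2 itself was at 1.62 ± 0.440 FPKM (SD, n = 3) in Trim11+/+ and 1.62 ± 0.294 FPKM (SD, n = 3) in Trim11+/- tumors. How many reads of Alas2 come from Apex2 was not tested.

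The embryonic and theta globin genes were silent at this depth. Hbb-y, Hbb-bh0, Hbb-bh1, Hbb-bh2, Hba-x, Hbq1a and Hbq1b had 0 reads in all 6 tumors, which over 61785795 reads allows up to 0.0486 RPM for each. Neuroglobin (Ngb) had 13 reads in all, whereas the globins of muscle and connective tissue were above the filter. Myoglobin (Mb), the oxygen store of muscle, was at 15.2 ± 6.93 FPKM (SD, n = 3) in Trim11+/+ and 14.2 ± 3.68 FPKM (SD, n = 3) in Trim11+/- tumors. Cytoglobin (Cygb), a globin of fibroblasts and pericytes, was at 7.07 ± 0.589 and 4.76 ± 2.65 FPKM (SD, n = 3 each), with 3.56 and 2.91 FPKM in Trim11+/- tumors 2 and 3 and 7.80 FPKM in tumor 1. Its log2 difference was -0.58 (standard error 0.30, limma adjusted p = 0.737). Without Trim11+/- tumor 1 Cygb met the fold and p rule as a lower gene, with a ratio of 0.458.

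Many genes of the red cell lineage other than the globins had few reads or none. Slc4a1, the band 3 anion exchanger, had 2 reads in all 6 tumors, and the transcription factor Gata1 had 4. Epb42, Kel, Car1 and Cldn13 had 0. Others were read, with 88 reads for Klf1, the erythroid Kruppel-like factor, and 63 for Tspo2. These genes were singled out after their values were seen. Beside the 18 to 140 reads per tumor of Hba-a1 and the 23 to 53 of Alas2, 11 of 17 membrane genes and 11 of 18 maturation genes had a mean under 0.5 FPKM. Ahsp was not found under this symbol.

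Most of the membrane and maturation genes that were well read are also used outside the red cell lineage. Among the membrane genes the highest were Aqp1, a water channel of red cells and vessels, at 22.1 ± 0.564 and 20.3 ± 6.00 FPKM (SD, n = 3 each), and the skeleton genes Epb41, Sptb and Tmod1 at mean levels of 7.25, 6.38 and 5.57 FPKM over the 6 tumors. Among the maturation genes they were the transferrin receptor Tfrc at 32.0 FPKM, carbonic anhydrase Car2 at 23.8 FPKM, Bpgm at 12.8 FPKM and Lmo2 at 11.0 FPKM. Summed over each list the genotypes overlapped, with 40.1 to 44.4 against 31.7 to 51.1 FPKM for the membrane genes and 75.5 to 103 against 79.3 to 95.9 FPKM for the maturation genes. The genes of heme synthesis, which every cell needs, were read in full, with 12 of 12 tested. Among the highest were Tmem14c at 80.2 FPKM, Alad at 21.7 FPKM and Urod at 21.4 FPKM, and their sums overlapped at 208 to 218 against 204 to 216 FPKM.

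Of the 57 genes of these 4 lists in the table, 27 were tested and 30 fell under the filter. None met the fold and p rule in either direction, beside 3.61% of all genes tested, and none had an unadjusted limma p under 0.05. By limma voom on recovered reads the counts were also 0. The median log2 difference of the 27 was -0.00623, beside -0.00475 for all genes. The differences ran from -0.58 for Cygb to 0.31 for Bpgm. The genotypes overlapped for every one of the 27, beside 13.4% of all genes tested that were without overlap in either direction. Klf1 met the rule as a higher gene only without Trim11+/- tumor 3, with a ratio of 1.85.

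**Figure D3:**
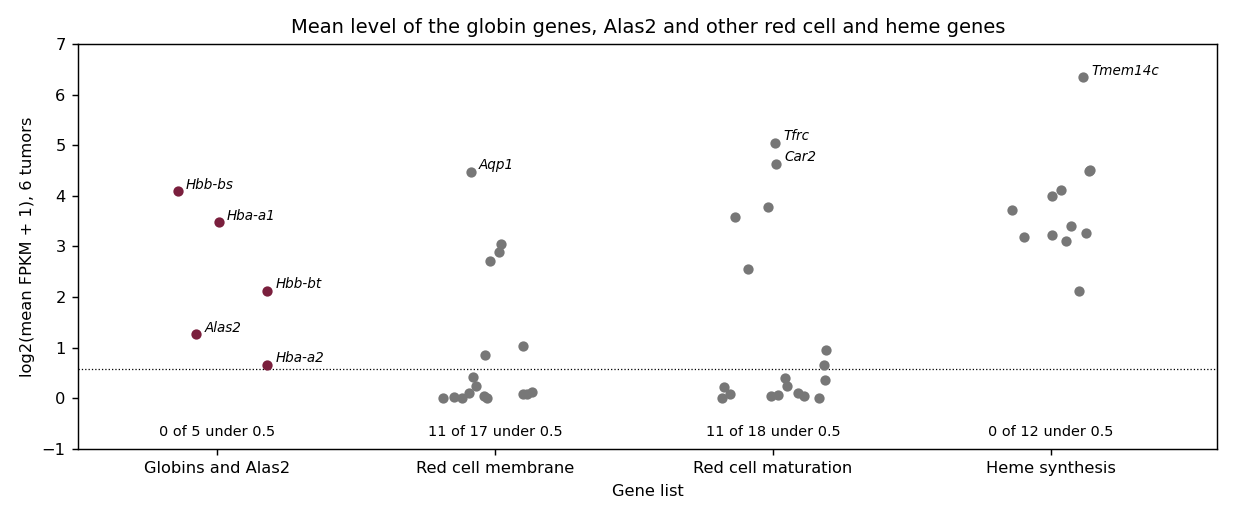
Mean level over the 6 tumors, as log2(FPKM + 1), of the globin genes and Alas2 (red) and of the genes of the red cell membrane, red cell maturation and heme synthesis lists (grey, spread sideways for sight). The dotted line is the filter at a mean of 0.5 FPKM, below which 11 of 17 membrane and 11 of 18 maturation genes lie, and 0 of 12 heme synthesis genes.

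Of the genes that bind and clear hemoglobin, heme and iron, the highest on average was Trf (transferrin) at 2155 FPKM. Next came Ftl1 and Fth1 (ferritin chains) at 441 and 394 FPKM, and Cp (ceruloplasmin) at 91.2 FPKM. Others were lower, with Hp at 84.4, Hmox1 at 11.2, Cd163 at 2.67 and Hpx at 0.239 FPKM. Of 14 tested, 1 met the fold and p rule as lower and 0 as higher, beside 1.87% and 1.74% of all genes tested. This was Trf, at 2639 ± 153 FPKM (SD, n = 3) in Trim11+/+ and 1670 ± 471 FPKM (SD, n = 3) in Trim11+/- tumors, with a log2 difference of -0.70 (standard error 0.23, limma adjusted p = 0.674). The call was lost without Trim11+/+ tumor 1 or 3 or Trim11+/- tumor 2 or 3, where the ratio was 0.646, 0.640, 0.651 and 0.711. It was also lost without a filter (limma adjusted p = 0.836) and with the replicate number as a block (limma adjusted p = 0.975). The summed list is mostly Trf and so no measure of hemoglobin clearance alone. It ran from 3748 to 3855 FPKM in Trim11+/+ and from 2338 to 3295 FPKM in Trim11+/- tumors, without overlap. Of the genes beside the alpha globin cluster, a neighborhood that holds its enhancers, 5 were tested and 0 met the rule, with none at an unadjusted limma p under 0.05. Rhbdf1 was at 26.8 ± 6.11 and 31.0 ± 5.77 FPKM (SD, n = 3 each), and Snrnp25 at 17.4 ± 2.59 and 20.3 ± 6.29 FPKM (SD, n = 3 each).

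Other cells of blood and vessels were measured beside the globin genes, since they could enter a sample with them. Over all genes tested 3.61% met the rule in either direction, so 0 calls in lists as short as those below carry no weight. Among 13 neutrophil genes 4 were tested and 2 met the rule as lower, beside 1.87% of all genes tested. S100a9, a calcium-binding protein of neutrophils, was at 5.43, 1.70 and 2.67 FPKM in Trim11+/+ and 0.517, 0.436 and 1.43 FPKM in Trim11+/- tumors, from 67 reads in all, with a limma adjusted p of 0.635. Ltf, lactoferrin, which mammary epithelium also makes, was at 269, 312 and 361 FPKM against 234, 143 and 88.1 FPKM, with the same adjusted p of 0.635. S100a8 overlapped between the genotypes, at 10.2, 34.0 and 28.0 FPKM in Trim11+/+ and 15.8, 18.2 and 17.6 FPKM in Trim11+/- tumors. Csf3r was at 1.83 ± 0.346 and 1.35 ± 0.152 FPKM (SD, n = 3 each) without overlap, and did not meet the rule. The summed neutrophil list is mostly Ltf and so no measure of neutrophils alone. It ran from 288 to 394 FPKM in Trim11+/+ and from 110 to 254 FPKM in Trim11+/- tumors. Of its genes under the filter, Ly6g was at 0 in all 6 tumors, and Mpo and Elane had 2 reads each. Mmp9 had 57 reads, Cxcr2 29, Mmp8 14, Retnlg 11, Camp 6 and Ngp 4. The part of neutrophils in the globin result was not tested.

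Of 14 platelet genes 3 were tested and 0 met the rule, and their sums, most of them Itgb3, an integrin that other cells also make, overlapped, at 10.8 to 35.2 FPKM in Trim11+/+ and 11.8 to 37.6 FPKM in Trim11+/- tumors. Gp1bb and Gp6, platelet receptor subunits, were at 0, and Ppbp, a platelet chemokine, had 2 reads in each Trim11+/+ tumor and 0 in each Trim11+/- tumor. Gp5 went the other way, with 3, 2 and 1 reads in Trim11+/+ and 7, 4 and 4 reads in Trim11+/- tumors. These genes were named after their values were seen. Gp1ba had 1, 8 and 1 reads against 11, 6 and 19 reads, and Itga2b was at 1.36 ± 0.366 and 1.98 ± 0.481 FPKM (SD, n = 3 each). Pf4 was at 4.81 ± 2.33 and 4.04 ± 3.17 FPKM (SD, n = 3 each). Endothelial genes, which mark the vessels that hold blood, were all tested, and 0 of 18 met the rule, beside 3.61% of all genes tested. Their sum was 58.0, 73.0 and 80.1 FPKM in Trim11+/+ and 71.7, 72.3 and 41.8 FPKM in Trim11+/- tumors. The sums overlapped, with the lowest in Trim11+/- tumor 3, and 14 of the 18 genes had a difference below 0. The median log2 difference of the 18 was -0.12, beside -0.00475 for all genes. The part of vessels in the globin result was not tested. Pericyte genes, of which 5 were tested, gave 0 calls.

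Of the lymphocyte genes 1 of 9 was tested, Cd4, at 0.853 ± 0.0861 and 0.430 ± 0.0809 FPKM (SD, n = 3 each) without overlap, and it did not meet the rule. The lymphocyte sum ran from 2.11 to 3.94 FPKM in Trim11+/+ and from 1.24 to 1.78 FPKM in Trim11+/- tumors, without overlap. It rests on few reads, with 8 of the 9 genes under the filter. Cd79b had 14, 10 and 1 reads in Trim11+/+ and 1, 1 and 0 in Trim11+/- tumors. Cd79a went the other way in Trim11+/- tumor 3, with 1, 3 and 1 against 0, 1 and 9 reads. The part of lymphocytes in the globin result was not tested. Of 8 macrophage genes 0 met the rule, and their sums overlapped at 522 to 716 against 477 to 568 FPKM. The hypoxia list, which covers genes induced where oxygen is low, gave 0 calls among 11 tested, with a median log2 difference of 0.09 and sums of 243 to 282 against 251 to 267 FPKM. Mammary epithelium, the labelled tissue, was plain in every tumor, with Krt8, Krt18 and Epcam at 439, 456 and 460 FPKM on average, and its list gave 0 calls among 8.

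The muscle and adipocyte sums varied more between the tumors than the globin sum did. The 6 skeletal muscle genes summed to 22.4, 108 and 231 FPKM in Trim11+/+ and 278, 1.78 and 2.26 FPKM in Trim11+/- tumors. The 6 adipocyte genes summed to 15.7, 134 and 30.2 FPKM in Trim11+/+ and 91.8, 51.8 and 9.67 FPKM in Trim11+/- tumors. Both lists overlapped between the genotypes and gave 0 calls. The muscle sum was highest in Trim11+/- tumor 1 and lowest in Trim11+/- tumor 2, and the adipocyte sum was highest in Trim11+/+ tumor 2 and lowest in Trim11+/- tumor 3. The part of muscle and fat in the globin result was not tested.

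**Figure D4:**
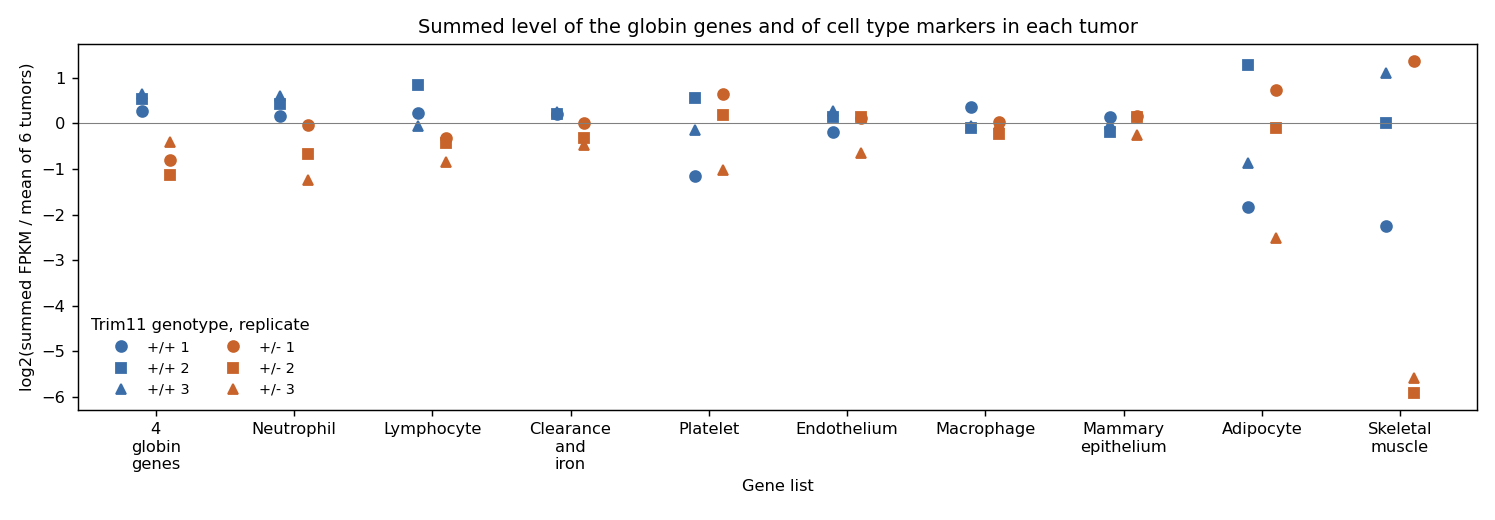
Summed FPKM of the 4 globin genes, of the cell type marker lists and of the clearance and iron list in each tumor, as log2 of the ratio to the mean of the 6 tumors (blue, Trim11+/+; orange, Trim11+/-; symbols mark the replicate number). The globin, neutrophil, lymphocyte and clearance and iron sums are apart between the genotypes, while the platelet, endothelium, macrophage, epithelium, adipocyte and muscle sums overlap. The neutrophil sum is mostly Ltf, which mammary epithelium also makes, and the clearance and iron sum is mostly Trf.

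The genes whose pattern over the 6 tumors was most like the mean of the 5 members were sought among 8203 genes with a mean of at least 5 FPKM. The 10 nearest, by Pearson's r over 6 tumors given as a description, were Hnrnpa3, Plekho1, Nup54, Nus1, Dcaf12, Xxylt1, Efna5, Dph2, Borcs7 and Smim13, with r from 0.988 to 0.949. Over so few tumors high values are common, and 43 genes reached 0.9. The profile of the members was itself lower in Trim11+/- tumors 1 and 2 than in tumor 3, which lay nearer the Trim11+/+ tumors. The globin sum of tumor 3, 22.8 FPKM, was yet below the lowest Trim11+/+ sum of 36.4 FPKM. The profile averages members that run opposite ways, since Hba-a1 had r = -0.78 with Hba-a2 and -0.71 with Alas2. It therefore differs from the pattern of the globin sum, for which no like genes were sought. The differences of the 10 genes were small beside those of Hba-a1, Hbb-bs and Hbb-bt. Hnrnpa3, an RNA-binding protein gene, went from 23.8 ± 0.474 to 20.4 ± 1.75 FPKM (SD, n = 3 each), and the log2 differences of the 10 genes lay between -0.40 for Plekho1 and -0.10 for Dcaf12. None of the 10 is a gene of the red cell, heme, platelet or endothelial lists. Most genes of the red cell, platelet and endothelial lists had a mean under 5 FPKM and could not enter, so this carries no weight.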

How the data were processed

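Poly(A) RNA of 6 tumors, from about 20 mg of tissue each, was sequenced in non-directional libraries with paired reads of 150 bases. The authors trimmed the reads (FastQC, Cutadapt), mapped them to mm10 with HISAT2, computed FPKM with Cufflinks under default parameters, and deposited 1 table of FPKM values for the tumors and 1 for the cell lines. How reads that fit both copies of a globin gene were placed, or whether they were left out, is not given in the sources used here. For symbols on several rows, the row with the largest mean was kept.

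From the deposited FPKM, gene lengths of the GENCODE release 21 annotation gave whole reads, within 0.02, in all 6 tumors for 98.8% of 28790 genes. A read may stand for a read pair. limma 3.58.1 in R 4.3.3 (lmFit, eBayes with a trend) was run on log2(FPKM + 1) for 17328 genes with a mean of at least 0.5 FPKM, with Benjamini-Hochberg adjustment, and was tested on simulated data. With 3 against 3 tumors an exact permutation test cannot go below p = 0.1. Intervals are exact, at 95%, and a count of 0 is read as up to 3 reads. Python 3.11.15 with numpy 2.4.6, pandas 2.3.3, scipy 1.17.1 and matplotlib 3.10.9 was used for the rest.

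The members and the 16 gene lists, written from general knowledge, were chosen with earlier results of these data known. The lists cover other globins, red cell membrane, red cell maturation, heme synthesis, clearance of hemoglobin and iron, neighbors of the alpha globin genes, and markers of platelets, neutrophils, endothelium, pericytes, lymphocytes, macrophages, hypoxia, mammary epithelium, adipocytes and skeletal muscle. Genes named are the members, Trim11, list genes that met the fold and p rule, the 4 highest of each list, and the 10 most like the members by Pearson's r, leaving out Gm, Rik and -ps symbols. Some genes of the lists are not reported here by name. Genes named outside this rule are Apex2, which overlaps Alas2, and embryonic globins and Ly6g, Mpo and Elane as markers. Some red cell, platelet, neutrophil, lymphocyte, hemoglobin and heme genes were also named after their values were seen. Sums over the alpha or beta genes alone and RPM were chosen after the data were seen. Promoter and protein sequences were not used here. Alternatives were a pseudocount of 0.1, a mean of at least 1 FPKM, no filter, scaling by median ratios or to equal FPKM totals with and without the members, eBayes with no trend, voom on recovered reads, a replicate block, and leaving out each tumor.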

Additional observations from a re-analysis of the deposited data

Results flagged for a closer look

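The cell line libraries stand outside the comparisons of the tumors, and some globin RNA was read there. In MDA-MB-231, HBE1, the embryonic epsilon globin gene, was at 5.61 FPKM in the single Control library and higher in both KDM5C-KD lines, at 15.7 and 38.7 FPKM, which is why it is listed. It was at 5.11 and 1.16 FPKM in the TRIM11-KD lines and at 1.18 and 0.255 FPKM in the DKD lines. HBG2, a fetal gamma globin gene, was at 0.277 FPKM in Control, at 0.966 and 1.70 FPKM in the KDM5C-KD lines, of which the second is above 1 FPKM and is listed for that, and is nearly the same as HBG1, which is at 0 in all 7 libraries. The adult genes HBB and HBA2 are listed at 0 in all 7 libraries, and HBA1 reached at most 0.385 FPKM. No test against the 1 Control library was run, and with no read numbers behind these values no counting error is given.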

How the results depend on the processing

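The log2 ratio of summed globin, -1.23, kept its sign under every alternative. It lay between -1.44 and -1.07 without 1 tumor at a time, was -1.23 under each scaling, and was -1.24 for the alpha genes, -1.23 for the beta genes and -1.25 in RPM. The median over the 5 members was -0.98. Hba-a1, Hbb-bs and Hbb-bt kept their sign in each alternative. Alas2 changed sign without Trim11+/- tumor 2 (-0.04). The fitted difference of Hba-a2 is set by the pseudocount, since Trim11+/+ tumors hold 1 read, and is not given. The gene was under the filter with a mean of at least 1 or without Trim11+/- tumor 2 or 3. Over all genes, the counts moved to 491 lower and 479 higher without a filter, where 29509 genes were tested, and lay between 295 and 467 lower and between 272 and 443 higher without 1 tumor. The red cell and heme genes stayed at 0 calls but for 1 lower (Cygb) without Trim11+/- tumor 1 and 1 higher (Klf1) without Trim11+/- tumor 3, so between 0 and 1 in each direction. The labels give the genotypes the same replicate numbers, but the deviations of same-numbered tumors correlated at -0.33, 0.04 and -0.13, so the numbers were not read as pairs. With the number as a replicate block 284 genes were lower and 289 higher, the red cell and heme genes had 0 calls, and the globin log2 ratio has no block term and stayed at -1.23. Depth limits Hba-a2, with 23 reads in all, and Hbb-bt, with 147, most.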
